A study of Mus musculus with 6 samples.

Results

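Immediate-early and heat shock genes were followed in 6 droplet single-cell RNA libraries of liver non-parenchymal cells (LNPCs, the cells of the liver other than hepatocytes). The members are 42 gene symbols of 19349 in the count tables, and each was found as a row in all 6 tables. They were listed by name as genes that respond to stress, tissue dissociation included. The rule reads no measured value, but the list was drawn up with earlier results of these data known. By role they comprise 15 immediate-early transcription factors, 14 immediate-early genes of feedback, mRNA decay, growth arrest and signalling, and 13 heat shock genes. The mice were male C57BL/6J animals, 8 weeks old at the start, and were kept on a high-fat diet for 24 weeks as a model of nonalcoholic steatohepatitis (NASH), a fatty liver with inflammation and cell injury. In the last 8 weeks the vehicle group received DMSO and the ginkgetin group received ginkgetin, a plant biflavone, at 10 mg/kg/day, both into the stomach. Each group has 3 libraries, numbered 1 to 3. The sources used here do not say whether a library came from 1 mouse or from several, so p-values measure the spread between these libraries. All 6 libraries were dissociated, and the LNPC isolation is given for both groups alike, so a level set in the liver and a level set during isolation cannot be told apart.

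Immediate-early genes are transcribed within minutes of a stimulus, without new protein synthesis. Their factors include the AP-1 subunits of the Fos and Jun families, the zinc finger proteins of the Egr family and the Nr4a nuclear receptors. Others shut the response off, such as the Dusp phosphatases that act on MAP kinases and the Zfp36 proteins that promote mRNA decay. The heat shock genes encode chaperones and cochaperones, and heat shock factor 1 drives their transcription when proteins misfold. Both programmes are known to be induced when a solid tissue such as liver is digested into single cells.

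The promoters of 35 of the 42 members were matched by symbol in RefSeq (GRCm38.p6), and 8 are shown, 5 of heat shock and 3 of immediate-early members that hold a motif searched. Each line gives the 250 bases before the transcription start, 5′ to 3′ on the gene's own strand. Capitals mark a pair of heat shock units (GAANNTTC or TTCNNGAA, the half-sites bound by heat shock factors) or the core of the cyclic AMP element (TGACGT, read on both strands). The windows are Hspa1a at chr17:34972157-34972406 on the minus strand, Hspa1b at chr17:34959239-34959488 on the minus strand, Hsph1 at chr5:149636337-149636586 on the minus strand, Hspb1 at chr5:135887669-135887918 on the plus strand, Hspe1 at chr1:55087898-55088147 on the plus strand, Jun at chr4:95052223-95052472 on the minus strand, Fos at chr12:85473640-85473889 on the plus strand and Atf3 at chr1:191183334-191183583 on the minus strand.
Hspa1a: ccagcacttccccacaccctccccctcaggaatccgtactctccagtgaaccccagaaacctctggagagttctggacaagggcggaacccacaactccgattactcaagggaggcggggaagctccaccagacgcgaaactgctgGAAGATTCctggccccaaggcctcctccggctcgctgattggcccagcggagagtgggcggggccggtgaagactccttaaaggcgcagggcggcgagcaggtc
Hspa1b: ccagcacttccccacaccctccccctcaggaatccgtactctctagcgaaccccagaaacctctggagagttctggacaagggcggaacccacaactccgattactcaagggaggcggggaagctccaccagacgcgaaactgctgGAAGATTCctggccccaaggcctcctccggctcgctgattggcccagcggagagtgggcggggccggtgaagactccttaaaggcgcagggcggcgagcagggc
Hsph1: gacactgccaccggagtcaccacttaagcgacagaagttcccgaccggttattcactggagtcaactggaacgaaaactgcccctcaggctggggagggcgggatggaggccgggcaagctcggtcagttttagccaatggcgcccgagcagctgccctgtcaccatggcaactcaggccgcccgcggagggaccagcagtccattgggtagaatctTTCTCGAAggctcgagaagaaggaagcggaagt
Hspb1: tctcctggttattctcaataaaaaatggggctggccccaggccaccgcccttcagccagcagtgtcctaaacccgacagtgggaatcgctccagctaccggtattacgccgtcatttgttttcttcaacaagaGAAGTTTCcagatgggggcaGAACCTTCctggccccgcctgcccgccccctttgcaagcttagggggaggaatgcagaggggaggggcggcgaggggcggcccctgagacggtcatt
Hspe1: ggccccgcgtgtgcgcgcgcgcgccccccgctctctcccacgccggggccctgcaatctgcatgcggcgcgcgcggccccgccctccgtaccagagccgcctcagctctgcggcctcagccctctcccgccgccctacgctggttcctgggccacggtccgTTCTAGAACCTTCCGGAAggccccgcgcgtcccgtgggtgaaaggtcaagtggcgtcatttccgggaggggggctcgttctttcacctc
Jun: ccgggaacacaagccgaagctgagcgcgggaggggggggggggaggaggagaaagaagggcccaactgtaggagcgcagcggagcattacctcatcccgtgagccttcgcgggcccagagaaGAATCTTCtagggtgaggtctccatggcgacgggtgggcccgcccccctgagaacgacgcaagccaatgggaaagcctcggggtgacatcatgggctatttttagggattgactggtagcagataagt
Fos: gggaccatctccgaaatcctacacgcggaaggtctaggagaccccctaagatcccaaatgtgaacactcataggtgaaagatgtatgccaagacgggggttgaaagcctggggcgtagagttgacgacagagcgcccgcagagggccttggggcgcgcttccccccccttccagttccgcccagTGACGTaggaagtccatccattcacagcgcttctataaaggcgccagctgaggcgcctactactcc
Atf3: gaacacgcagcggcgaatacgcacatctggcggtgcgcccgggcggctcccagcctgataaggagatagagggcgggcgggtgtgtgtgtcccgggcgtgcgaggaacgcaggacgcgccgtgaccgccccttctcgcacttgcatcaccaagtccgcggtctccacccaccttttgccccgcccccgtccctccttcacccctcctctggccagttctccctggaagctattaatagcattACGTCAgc

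A pair of heat shock units was found in 8 of 10 matched heat shock members, in 3 of 12 matched immediate-early factors (Fosl2, Jun and Egr2) and in 0 of 13 matched feedback members, against 14.5% of 27,025 genes. A run of 3 units in alternating order, which contains such a pair, was found in Hspe1 and Hspd1 and in 0.514% of genes. The cyclic AMP core was found in 1 of 10 heat shock members, 4 of 12 factors (Fos, Egr2, Atf3 and Nr4a3) and 4 of 13 feedback members, against 7.29% of genes. The CArG box, the site of serum response factor, was found in Egr2 among the factors, in Dusp5 and Zfp36 among the feedback members and in no heat shock member, against 1.62% of genes. A match is a description of these letters in this window. Hspa1a and Hspa1b, which encode nearly the same inducible HSP70 protein, differed at 3 of the 250 bases, and 63.8% of the 31-base words of the Hspa1a transcript were also in Hspa1b. In the last 500 bases 0% were shared, so how their reads were split depends on where in the transcript they fell.

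The tables held 33,168 barcodes, and 27,544 with 250 to 5000 genes and under 5% mitochondrial UMIs (unique molecular identifiers, which count molecules) were kept. The limits removed 458 of 6475, 241 of 3577 and 1191 of 5328 barcodes in vehicle 1, 2 and 3 and 565 of 4058, 1201 of 8119 and 1968 of 5611 in ginkgetin 1, 2 and 3, of which 5278 of 5624 in all were over the mitochondrial limit. The share removed was higher in the ginkgetin library of each replicate number. With no limits on cells 7 members were called over all cells (12.9% of genes called) and 7 in macrophage-like cells (12.1%). Total UMIs per library ranged from 13,128,697 to 61,796,882. The median UMIs per kept cell ranged from 2483 in ginkgetin 1 to 8412 in vehicle 3. Replicate 3 of both groups had another barcode set and another version of the gene symbols than replicates 1 and 2, with 946 symbols counted only in replicates 1 and 2 and 2253 only in replicate 3. Libraries of replicates 1 and 2 shared 23 to 85 barcodes per pair, the replicate 3 libraries shared 10, and pairs across the sets shared 0 or 1. Cells were clustered without the members and named from marker genes into 10 classes, and 5548 cells stayed unnamed. Unnamed clusters 6, 15 and 32 (1174, 677 and 198 cells) were nearest to the endothelial class. Cluster 6, led by Wnt2, had 8 of 8 endothelial markers, with 360 and 797 cells in ginkgetin 1 and 2. Unnamed cluster 3 (1726 cells, 2 of 9 macrophage markers) held 886 and 488 cells of vehicle 1 and 2. The endothelial-like class thus leaves out part of the cells with endothelial markers. In macrophage-like cells, clusters 8, 9, 11 and 25 held most vehicle cells and clusters 20 and 28 most ginkgetin cells. In endothelial-like cells, cluster 4 held most cells of vehicle 1 and 2, cluster 0 those of ginkgetin 1 and 2, and cluster 5 those of replicate 3. T cell-like and B cell-like clusters held cells of both groups and were split by barcode set. Of the T cell-like clusters, cluster 7 held 481 and 280 cells of vehicle 1 and 2 and 321 and 63 of ginkgetin 1 and 2, while cluster 13 held 123 and 41 against 114 and 418.

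The 13 heat shock members, summed, took a smaller share of UMIs in the ginkgetin libraries. Together they took 7526, 7073 and 5933 CPM (UMIs of a gene scaled to a common total per library and class) in vehicle 1, 2 and 3, against 4970.3, 2752 and 3089 in ginkgetin 1, 2 and 3, over all kept cells. The group means were 6844 ± 821 (SD, n = 3) and 3604 ± 1196 (SD, n = 3), a ratio of 1.90 with no overlap. By mean, the sum was lower in 10 of 10 classes, and the libraries did not overlap in 8 of them. The plasma cell-like and stellate-like classes were the exceptions, where vehicle 3 (2187 and 4388 CPM) lay below ginkgetin 1 (3517 and 4569). The ratio of means was widest in B cell-like cells (2.35, from 7993 ± 1301 (SD, n = 3) to 3408 ± 1451 (SD, n = 3)) and T cell-like cells (2.27), and smaller in macrophage-like cells (1.49) and hepatocyte-like cells (1.29), the latter without ginkgetin 1, which had 0 such cells, and with 12 in ginkgetin 2. Vehicle 1 was the highest library in 8 classes, and ginkgetin 2 the lowest in 6 and ginkgetin 3 in 4. Without Hspa1a and Hspa1b the sum over all kept cells was still 6477, 6149.6 and 4946 against 4749.6, 2648 and 2943 CPM. Sums over listed members carry no test here.

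Immediate-early genes together did not separate the groups. Their 29 members took 4261, 6193 and 9127 CPM in vehicle 1, 2 and 3 and 6409, 6655 and 8858 in ginkgetin 1, 2 and 3, and the ranges overlapped. The log2 ratio of the means was 0.16, and -0.07 without vehicle 1, while it was larger without vehicle 3. By mean the sum was higher in 8 of 10 classes and lower in 2. In macrophage-like cells it was 5771 ± 3053 (SD, n = 3) against 9436 ± 3005 (SD, n = 3), with overlap. Vehicle 1 was the lowest library in 6 of 10 classes, and ginkgetin 3 the highest in 5. Hepatocyte-like cells were the 1 class without overlap, with 967, 664 and 1183 in vehicle against 1676 and 2102 in ginkgetin 2 and 3. Vehicle 1 was thus the library with the highest heat shock sum and the lowest immediate-early sum of its group, over all kept cells and in macrophage-like, endothelial-like and T cell-like cells.

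**Figure D1:**
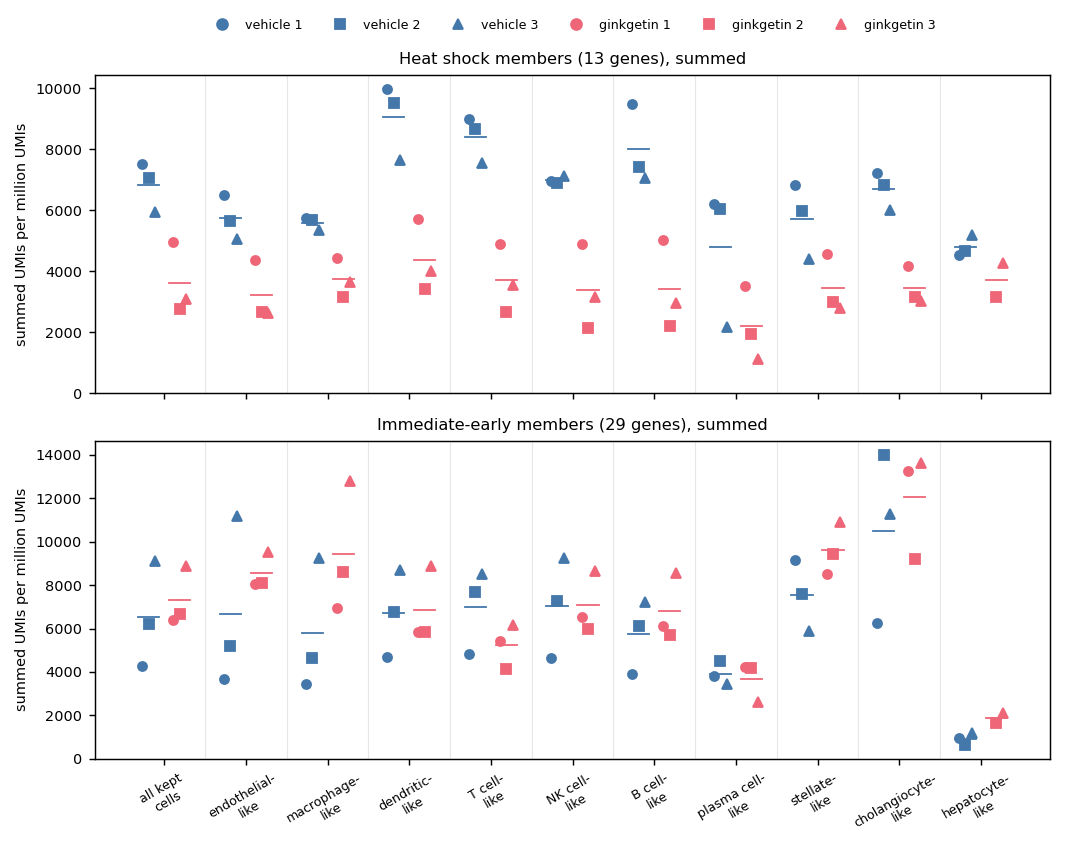
Summed CPM (vertical axes) of the 13 heat shock members (top) and the 29 immediate-early members (bottom) over all kept cells and in each cell class (horizontal axis), with 1 point per library and a bar at each group mean. In the top panel the vehicle points lie above the ginkgetin points in all classes but the plasma cell-like and stellate-like ones, while in the bottom panel the groups overlap in all classes but the hepatocyte-like one.

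Hspa1a, the inducible HSP70 gene, stood at 770.2, 637 and 535 CPM in vehicle 1, 2 and 3 and at 113, 55.6 and 63.2 in ginkgetin 1, 2 and 3 over all kept cells. Each vehicle library was above each ginkgetin library (log2 fold change -3.32 ± 0.45 (SE), adjusted p = 0.0067 by edgeR). Its near copy Hspa1b had 279, 286 and 452 against 108, 48.0 and 82.5 CPM, also without overlap (log2 fold change -2.36 ± 0.40 (SE), adjusted p = 0.012 by edgeR). Hspa8, the constitutive HSP70 that uncoats clathrin vesicles, had 2419, 2213 and 1807 against 1303, 699 and 999 (log2 fold change -1.38 ± 0.37 (SE), adjusted p = 0.048 by edgeR). These 3 and 4 immediate-early members were the 7 members of 41 tested that were called, with an adjusted p under 0.05 and a fold over 2, and all 7 were lower. Of all genes tested, 12.8% were called, and 6.24% were called lower. Egr3 did not pass the filter on low counts in this comparison. Of the 13 heat shock members, 12 had a negative log2 fold change (median -0.87, against 0.04 over all genes tested), and 5 lay lower in every ginkgetin library, against 10.8% of genes. Dnajb4, an HSP40 cochaperone, lay higher in every ginkgetin library, the highest vehicle library at 21.7 and the lowest ginkgetin library at 22.0 CPM (log2 fold change 0.11 ± 0.25 (SE), adjusted p = 0.81 by edgeR), as did 30.6% of genes. The count rested on 1 library more than once, being 3 without vehicle 1 (5.29% of genes called), 1 without vehicle 2 (4.23%), 2 without ginkgetin 2 (4.14%) and 3 without ginkgetin 3 (10.8%). Over the 16,821 cells of 250 to 5000 UMIs, the limits as the study words them, 0 members and 0% of genes were called. Class makeup differed between libraries, and in sums over all cells fewer cells of a type and less RNA per cell cannot be told apart. Fold changes are on edgeR's normalized scale, on which a gene is read against the typical gene. On library totals the median log2 fold change rose by 0.32, the share of calls that were higher rose from 51.3% to 75.1%, and 4 members were called, all lower, against 11.2% of genes.

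In macrophage-like cells, 6 of 41 tested members were called, all lower, against 10.6% of genes called in either direction and 5.11% called lower. Hspa1a had 471, 468 and 538 CPM in the vehicle libraries and 263, 284 and 243 in the ginkgetin libraries (log2 fold change -1.34 ± 0.21 (SE), adjusted p = 0.015 by edgeR). Hspa8 had 1809, 1674 and 1640.4 against 976, 693 and 1019 (log2 fold change -1.39 ± 0.25 (SE), adjusted p = 0.019 by edgeR). Hsp90aa1, the inducible HSP90, had 524, 564 and 432 against 281, 208 and 331 (log2 fold change -1.36 ± 0.25 (SE), adjusted p = 0.019 by edgeR). All 3 kept each vehicle library above each ginkgetin library. Hspb1, the small heat shock protein HSP27, was scarce at 11.4, 11.5 and 9.33 against 0, 3.03 and 2.42 CPM (log2 fold change -2.81 ± 0.48 (SE), adjusted p = 0.017 by edgeR), and this fitted value depends on the prior count because ginkgetin 1 had 0 UMIs. Hspa1b overlapped between the groups in this class, with 195, 235 and 418 against 309.6, 144 and 237 (log2 fold change -0.72 ± 0.38 (SE), adjusted p = 0.25 by edgeR). Dnajb1, an HSP40 cochaperone, also overlapped, with 55.7, 58.4 and 44.4 against 96.9, 44.0 and 33.8 (log2 fold change -0.37 ± 0.46 (SE), adjusted p = 0.64 by edgeR), and its direction turned in 1 alternative. In all, 12 of 13 heat shock members had negative fold changes (median -0.79, against 0.02 over all genes), and 4 of 13 were lower in every ginkgetin library, against 7.99% of genes. Dnajb4 was again higher in every ginkgetin library, at 10.5, 11.7 and 11.8 against 15.6, 18.2 and 19.3 (log2 fold change 0.17 ± 0.22 (SE), adjusted p = 0.64 by edgeR), as were 33.1% of genes. Without vehicle 1, vehicle 2 or ginkgetin 2, 0 members and 0% of genes were called, and without ginkgetin 3 the counts were 1 member and 2.56% of genes. Without vehicle 3 there were 8 calls, 6 lower and 2 higher (Dusp1 and Egr1), against 12.5% of genes. Over the cells of 250 to 5000 UMIs there were 2, Gadd45b lower and Egr1 higher, against 1.27%. Ginkgetin 1 had 101 macrophage-like cells. Different clusters held most vehicle and most ginkgetin cells of this class, so cluster makeup and level within a cluster cannot be told apart. On library totals the median log2 fold change rose by 0.49 and the share of calls that were higher rose from 51.9% to 90.2%, and 4 members were called, 3 lower and 1 higher (Dusp6), against 17.3% of genes.

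In endothelial-like cells 0 of 40 tested members were called by edgeR, of 0.348% of genes called, while 11 members had an unadjusted p under 0.05, against 13.7% of genes, and DESeq2 called 7, against 2.73%. Hspa1a had 667, 476 and 320.4 CPM in vehicle 1, 2 and 3 and 188, 75.1 and 30.2 in ginkgetin 1, 2 and 3 (log2 fold change -2.45 ± 0.77 (SE), adjusted p = 0.25 by edgeR). Hspa1b had 679, 509 and 333 against 139.8, 76.8 and 27.3 (log2 fold change -2.78 ± 0.72 (SE), adjusted p = 0.18 by edgeR). For both genes, no ginkgetin library reached a vehicle library. Hspb1 likewise did not overlap, with 279, 235 and 147 against 102, 54.2 and 40.0 (log2 fold change -1.92 ± 0.52 (SE), adjusted p = 0.19 by edgeR). Hspa8 had 1147, 1121 and 1532 against 850.2, 546 and 853 (log2 fold change -0.91 ± 0.25 (SE), adjusted p = 0.2 by edgeR), while Hsp90aa1 overlapped, since vehicle 3 lay below ginkgetin 1, with 388, 309 and 273 against 281, 134 and 130.2. Dnajb1 had 74.4, 74.0 and 69.7 against 105, 80.5 and 42.5, with ginkgetin 1 and 2 above all vehicle libraries. All 13 heat shock members had negative fold changes, Dnajb1 turning direction in 5 alternatives, with a median of -0.78, and 6 of 13 were lower in every ginkgetin library, against 6.17% of genes. On library totals the median rose by 0.16. In these cells too, cluster makeup and level within a cluster cannot be told apart.

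**Figure D2:**
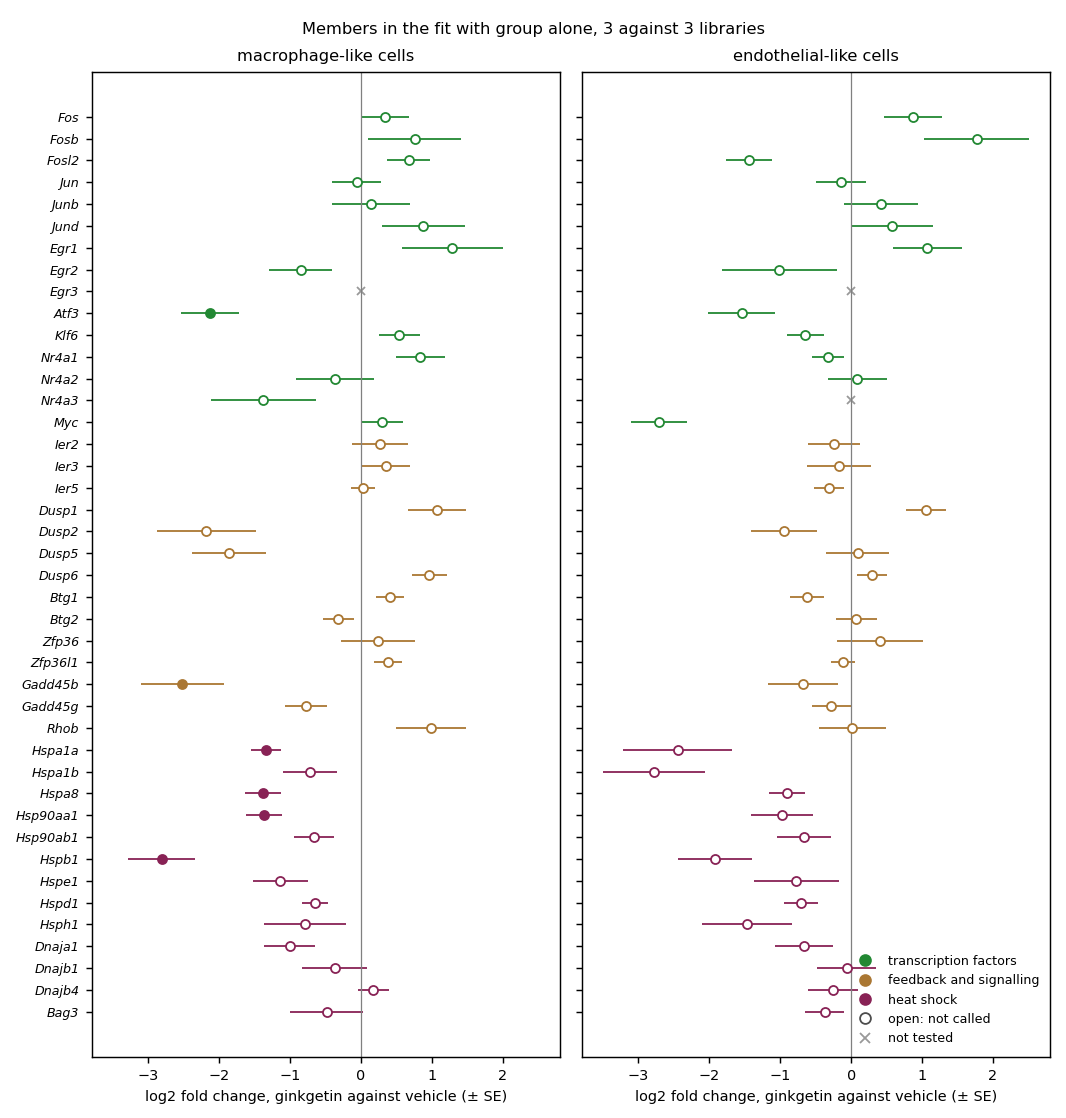
Log2 fold change of ginkgetin against vehicle (horizontal axis, bars are the SE, 3 against 3 libraries) of each member (vertical axis, coloured by role) in macrophage-like cells (left) and endothelial-like cells (right), with filled points for called members, open points for the others and crosses for members that did not pass the low-count filter. The heat shock members lie left of 0 in both panels except Dnajb4 in macrophage-like cells, while the immediate-early members lie on both sides.

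In the 8 other classes 0 of 286 member tests were called by edgeR, beside 0.0265% of gene tests, while 82 had an unadjusted p under 0.05, against 12% of gene tests, and DESeq2 called 31, against 0.908%. T cell-like cells had Hspa1a at 776, 828 and 379.6 CPM in vehicle 1, 2 and 3 and at 51.6, 15.5 and 27.8 in ginkgetin 1, 2 and 3 (log2 fold change -4.40 ± 0.62 (SE), adjusted p = 0.24 by edgeR). All 13 heat shock members had negative fold changes in these cells (median -1.09), and 11 of 13 were lower in every ginkgetin library, against 9.19% of genes. B cell-like cells had Hspa1a at 696, 781 and 470.4 against 86.5, 17.8 and 24.1 (log2 fold change -3.94 ± 0.73 (SE), adjusted p = 0.33 by edgeR), and 8 of 11 tested heat shock members were lower in every ginkgetin library, against 7.99% of genes. Dendritic-like cells had 1147, 909.8 and 811 against 116, 34.4 and 93.2 (log2 fold change -3.56 ± 0.51 (SE), adjusted p = 0.17 by edgeR), and 9 of 12 members were lower, against 10.4%. Cholangiocyte-like cells, of the bile duct lining, had 606, 239 and 64.1 against 22.9, 28.3 and 17.6 (log2 fold change -3.69 ± 0.73 (SE), adjusted p = 0.1 by edgeR), and 9 of 13 were lower, against 11.8%. In these 4 classes, as in each of the other named classes, the share of heat shock members lower in every ginkgetin library exceeded the share of all genes. The remaining 4 classes held 286 to 799 cells each. NK cell-like cells had Hspa1a at 509.8, 395 and 190.2 against 89.5, 13.1 and 22.5 CPM, with 16 cells in vehicle 3, and 4 of 11 heat shock members were lower without overlap, against 7.54% of genes. Plasma cell-like cells had 739, 557 and 238 against 82.8, 30.3 and 15.03, and 2 of 11 were lower, against 0.856%. Stellate-like cells, of which 181 lay in a cluster led by Dcn, Colec11 and Cxcl12 and 105 (20 of 26 in vehicle 1) in one led by Gsn, Igfbp6 and Dpt, had 675, 604 and 185 against 203, 242 and 107, so that vehicle 3 lay below ginkgetin 1 and 2, and 3 of 12 were lower, against 6.12%. Hepatocyte-like cells had 127, 41.5 and 18.1 in vehicle against 0 and 15.5 in ginkgetin 2 and 3, and 5 of 11 were lower, against 17.5%.

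**Figure D3:**
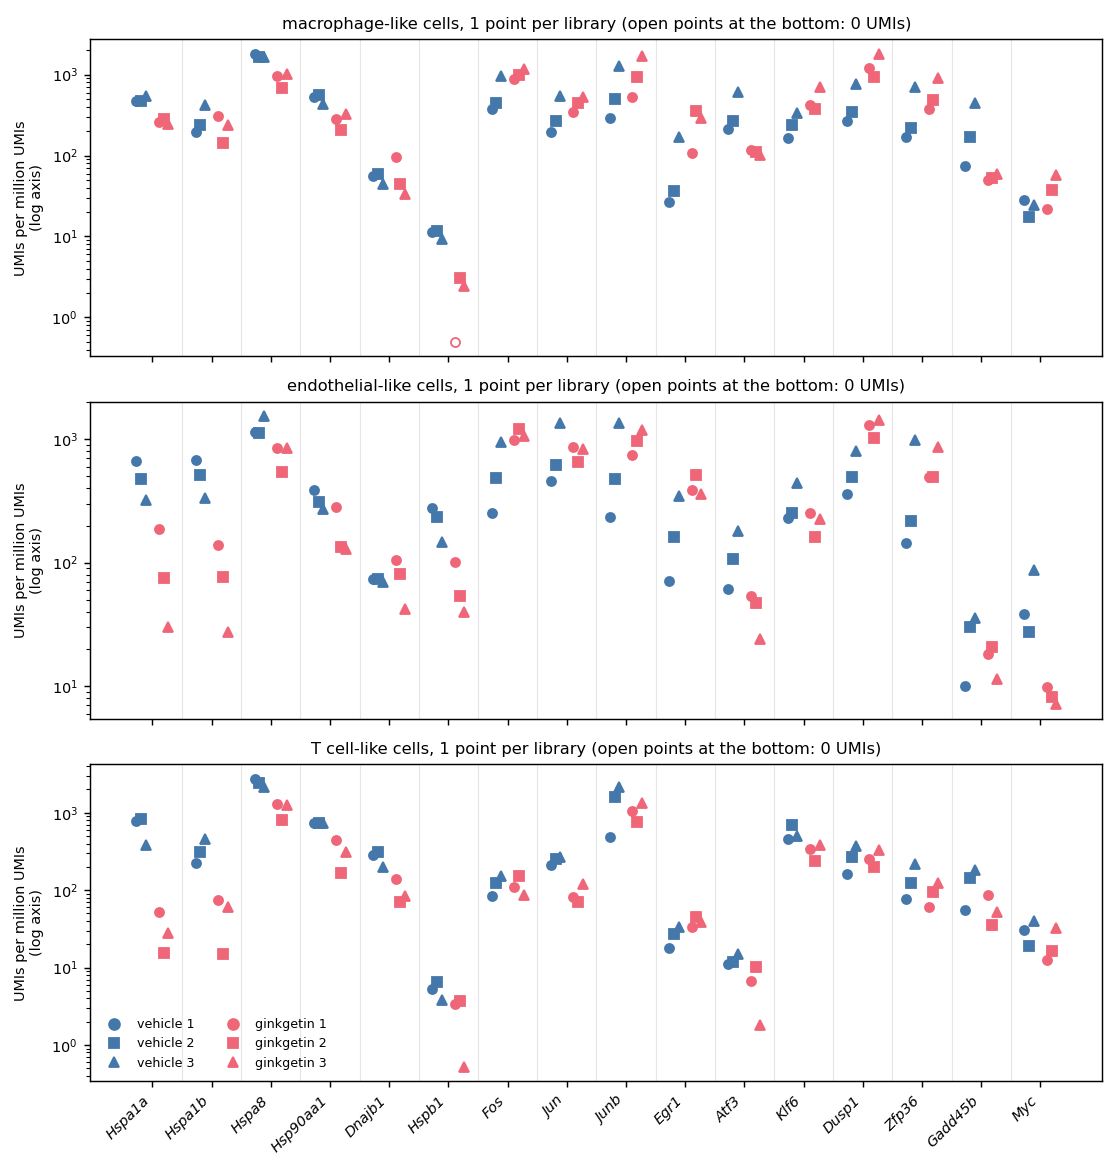
CPM (vertical axes, log scale) of 16 members (horizontal axis) in macrophage-like (top), endothelial-like (middle) and T cell-like cells (bottom), with 1 point per library and open points for 0 UMIs. Hspa1a lies lower in every ginkgetin library than in every vehicle library in all 3 panels, whereas Fos and Junb overlap in the top panel.

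Cells with any Hspa1a UMI were also fewer at equal depth. After each cell was thinned to 1000 UMIs, leaving out 0 cells in replicates 1 and 2, 23 in vehicle 3 and 112 in ginkgetin 3, the share of cells with an Hspa1a UMI was 40.6%, 34.6% and 26.8% in vehicle 1, 2 and 3 and 10.4%, 4.96% and 4.45% in ginkgetin 1, 2 and 3. Unthinned shares were 70.7%, 61.0% and 53.8% against 21.9%, 12.4% and 16.5%. In T cell-like cells the thinned shares were 37.6%, 36.2% and 21.4% against 4.98%, 0.724% and 3.32%. In macrophage-like cells they were 31.5%, 31.3% and 33.7% against 18.8%, 22.3% and 15.7%. Egr1 went the other way, with thinned shares of 3.49%, 6.21% and 8.75% against 13.3%, 23.0% and 15.6% over all kept cells. No cell class is known to lack these genes, so the part of free RNA in these shares was not tested.

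Same-numbered libraries deviated together from their group means, with a correlation over 0.1 in every pair and class examined. Since replicate 3 of both groups was the other barcode set, this check could not tell pairs from the set. Between replicates 1 and 2 alone, the correlation of the 2 groups' differences was 0.25 over all kept cells. It was -0.01 to 0.05 in macrophage-like, endothelial-like, T cell-like and B cell-like cells. A fit with the number as a block gave more calls. Over all kept cells 11 members were called (10 lower) of 17.3% of genes called and 8.9% called lower. In macrophage-like cells 15 were called (11 lower) beside 16% and 8.48%, and in endothelial-like cells 9 (7 lower) beside 3.96% and 2.77%. In the other 8 classes 47 member tests were called, 40 of them lower, beside 1.83% and 0.847%. The blocked calls in macrophage-like cells were lower for Hspb1 (-2.66), Gadd45b (-2.44), Dusp5 (-2.12), Dusp2 (-2.10), Atf3 (-2.08), Nr4a3 (-1.73), Hspa8 (-1.40), Hspa1a (-1.37), Hsp90aa1 (-1.35), Hspe1 (-1.18) and Dnaja1 (-1.09), and higher for Egr1 (1.54), Dusp1 (1.16), Jund (1.07) and Rhob (1.01). In endothelial-like cells they were lower for Hspa1b (-3.03), Hspa1a (-2.79), Myc (-2.77), Hspb1 (-1.98), Hsph1 (-1.76), Fosl2 (-1.42) and Hsp90aa1 (-1.07), and higher for Fosb (2.06) and Dusp1 (1.08). The correlation of same-numbered libraries was highest for replicate 3, the other barcode set. Hspa1a was called lower in 8 of 10 classes (log2 fold change -4.43 to -1.37), all but the stellate-like and hepatocyte-like ones, Hspa1b in 7 (-3.03 to -1.92), Hsp90aa1 in 6 (-1.43 to -1.07), and Hspa8 and Dnaja1 in 5 each. Hspb1 was called lower in 4 of the 6 classes in which it was tested. No heat shock member was called higher in any class. In T cell-like cells Hspa1a had a blocked value of -4.43 ± 0.39 (SE), adjusted p = 0.016 by edgeR. In endothelial-like cells it was -2.79 ± 0.28 (SE), adjusted p = 0.0021 by edgeR, and for Hspa1b it was -3.03 ± 0.24 (SE), adjusted p = 0.0009 by edgeR.

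**Figure D4:**
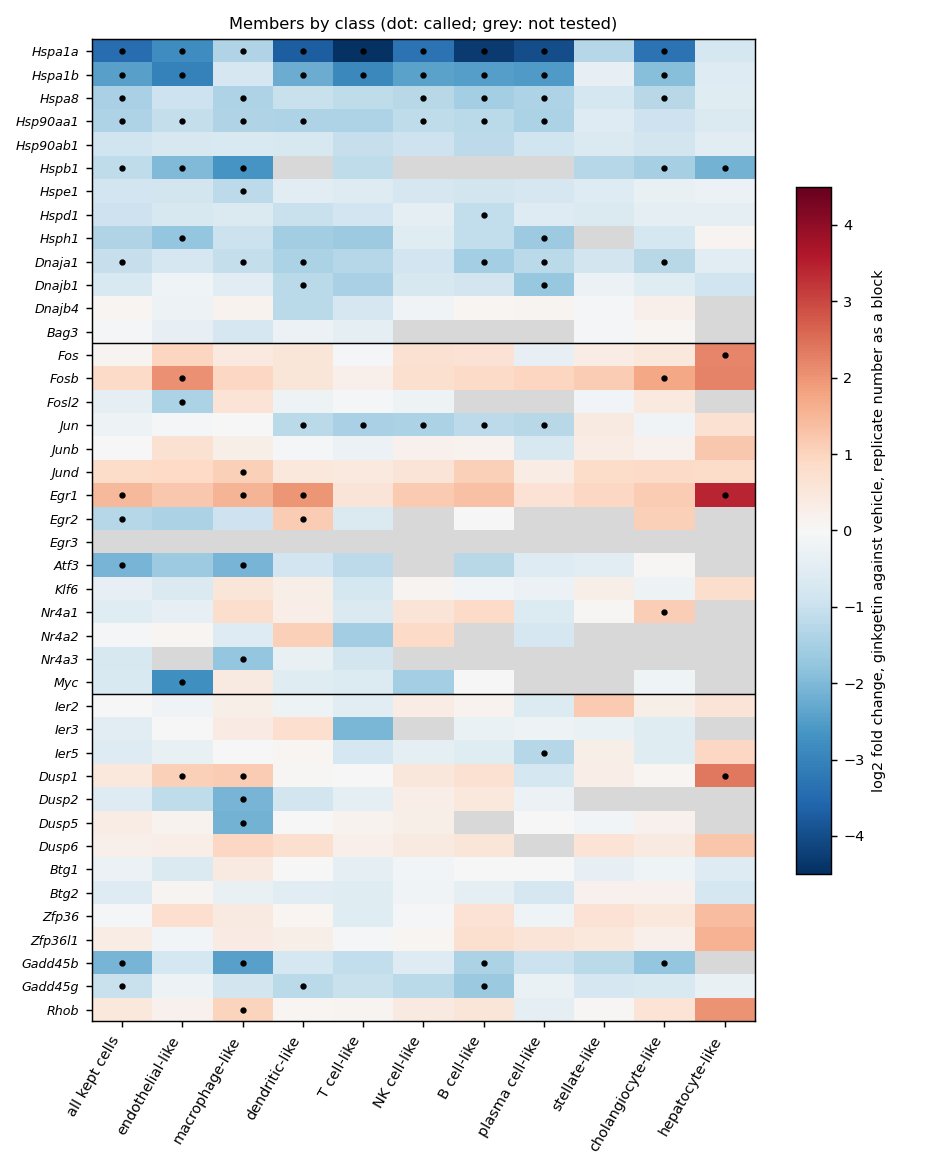
Log2 fold change of ginkgetin against vehicle (colour, blue lower and red higher) of each member (rows) in all kept cells and each class (columns), from the fit with the replicate number as a block, with dots for called members and grey for members not tested. Hspa1a carries a dot in 8 of 10 classes and Jun in 5, while Egr1 and Dusp1 carry dots for higher values in 3 each.

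Atf3, a stress-induced repressor of the ATF/CREB family, had 159, 258 and 413 CPM in vehicle and 93.1, 68.7 and 63.8 in ginkgetin libraries over all kept cells (log2 fold change -2.12 ± 0.42 (SE), adjusted p = 0.019 by edgeR). In macrophage-like cells it had 210.0, 268 and 611 against 119, 112 and 101 (log2 fold change -2.13 ± 0.40 (SE), adjusted p = 0.021 by edgeR). It did not overlap in endothelial-like cells either (60.9, 107 and 181 against 53.7, 47.5 and 24.1), where it was not called (log2 fold change -1.54 ± 0.47 (SE), adjusted p = 0.24 by edgeR). Vehicle 3 was the highest library in all 3 cases. Egr1, a zinc finger factor induced by growth signals, had 38.9, 85.5 and 138 CPM in vehicle and 188, 314 and 302 in ginkgetin libraries over all kept cells, so that each ginkgetin library was higher (log2 fold change 1.31 ± 0.44 (SE), adjusted p = 0.086 by edgeR). With the block it was called higher (1.45 ± 0.31 (SE), adjusted p = 0.015 by edgeR). In macrophage-like cells it had 26.6, 36.0 and 169 against 106, 356 and 292, and vehicle 3 lay above ginkgetin 1 (log2 fold change 1.29 ± 0.71 (SE), adjusted p = 0.26 by edgeR, and with the block 1.54 ± 0.41 (SE), adjusted p = 0.019 by edgeR). In endothelial-like cells it had 71.3, 162 and 345 against 389, 517 and 360.1 without overlap (log2 fold change 1.07 ± 0.49 (SE), adjusted p = 0.41 by edgeR). Egr2, its relative, had 14.7, 17.0 and 32.6 against 9.77, 9.98 and 11.7 over all kept cells and was called lower (log2 fold change -1.32 ± 0.30 (SE), adjusted p = 0.03 by edgeR), yet with the block it was called higher in dendritic-like cells, where it had 10.3, 14.98 and 19.7 against 31.9, 27.6 and 42.8 (1.15 ± 0.26 (SE), adjusted p = 0.046 by edgeR).

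Jun and Fos, the partners of the classical AP-1 dimer, had different values by class. Jun had 212, 249.6 and 267 CPM in vehicle and 81.9, 71.0 and 119 in ginkgetin libraries in T cell-like cells, without overlap (log2 fold change -1.46 ± 0.20 (SE), adjusted p = 0.24 by edgeR, and with the block -1.46 ± 0.20 (SE), adjusted p = 0.028 by edgeR). With the block it was called lower in 5 classes (T cell-like, B cell-like, NK cell-like, dendritic-like and plasma cell-like, -1.46 to -1.17). In macrophage-like cells it overlapped at 197, 269.9 and 544 against 341, 443 and 533 (log2 fold change -0.06 ± 0.34 (SE), adjusted p = 0.94 by edgeR), a value that turned sign in 5 alternatives. In endothelial-like cells it also overlapped, at 459, 614 and 1363 against 863, 648 and 829.5, and turned sign in 2. Fos had 376, 445 and 962 against 882, 994 and 1175 in macrophage-like cells (log2 fold change 0.34 ± 0.34 (SE), adjusted p = 0.53 by edgeR). In endothelial-like cells it had 253, 481 and 951 against 992, 1211 and 1052 (log2 fold change 0.87 ± 0.41 (SE), adjusted p = 0.42 by edgeR). Vehicle 1 and 2 were the low libraries and vehicle 3 lay near the ginkgetin libraries for Fos in both classes. Junb, another Jun family subunit, overlapped in both, at 295, 495 and 1283 against 529, 925 and 1715 in macrophage-like cells and 235, 473 and 1347 against 746, 969 and 1189 in endothelial-like cells, and the macrophage-like value turned sign in 3 alternatives. Klf6, a zinc finger factor induced by tissue injury, had 166, 239.7 and 337 against 416, 378 and 694 in macrophage-like cells, higher in each ginkgetin library (log2 fold change 0.54 ± 0.29 (SE), adjusted p = 0.25 by edgeR). In endothelial-like cells it had 232, 252 and 442 against 253, 161 and 228 (log2 fold change -0.64 ± 0.27 (SE), adjusted p = 0.36 by edgeR). Of 28 immediate-early members tested in macrophage-like cells, 9 were higher in every ginkgetin library on the scale of library totals, against 33.1% of genes, and their median log2 fold change was 0.29.

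Among the feedback genes, Gadd45b, a growth arrest gene that binds MAP kinase kinases, had 80.0, 195 and 365 CPM in vehicle and 61.5, 39.5 and 61.4 in ginkgetin libraries over all kept cells (log2 fold change -2.25 ± 0.54 (SE), adjusted p = 0.034 by edgeR). In macrophage-like cells it had 75.4, 169.8 and 449 against 50.04, 53.1 and 58.4 (log2 fold change -2.52 ± 0.59 (SE), adjusted p = 0.036 by edgeR). The vehicle libraries spread widely and the ginkgetin libraries lay close together below them. Gadd45g, its relative, was called lower over all kept cells, with 96.9, 116 and 106 against 51.9, 74.1 and 70.7 (log2 fold change -1.01 ± 0.17 (SE), adjusted p = 0.013 by edgeR), but overlapped in macrophage-like and endothelial-like cells. Dusp1, the phosphatase that switches off p38 and JNK, was higher in each ginkgetin library in macrophage-like cells (264, 342 and 772 against 1207, 936 and 1793), and missed the threshold (log2 fold change 1.07 ± 0.40 (SE), adjusted p = 0.12 by edgeR) but was called with the block (1.16 ± 0.25 (SE), adjusted p = 0.0071 by edgeR), by DESeq2 and without vehicle 3. In endothelial-like cells it was also higher in each ginkgetin library, called with the block and by DESeq2, with 359, 496 and 800.5 against 1303, 1019 and 1423 (log2 fold change 1.05 ± 0.28 (SE), adjusted p = 0.18 by edgeR, and with the block 1.08 ± 0.21 (SE), adjusted p = 0.018 by edgeR). Dusp6, which acts on ERK, had 68.2, 57.2 and 85.3 against 144, 144 and 284 in macrophage-like cells, past the p threshold and short of the fold (log2 fold change 0.96 ± 0.25 (SE), adjusted p = 0.047 by edgeR). Dusp2, an inducible phosphatase of immune cells, had 61.4, 83.4 and 353 against 18.8, 60.7 and 63.8 in the same cells (log2 fold change -2.18 ± 0.70 (SE), adjusted p = 0.08 by edgeR), where ginkgetin 3 lay just above vehicle 1, and was called lower with the block. Zfp36, which binds AU-rich mRNA and promotes its decay, overlapped in macrophage-like cells (169.5, 219 and 699.6 against 372, 484 and 899) and in endothelial-like cells (145, 218 and 976 against 499, 494 and 859), with a sign that turned in 2 alternatives in the former.

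The response of some members differed between macrophage-like and endothelial-like cells. The difference of the log2 fold changes was tested in 1 fit over both classes with library as a term, and 8 of 42 members were called, against 8.78% of genes. Myc, a growth-promoting factor, had 38.3, 27.3 and 86.6 CPM in vehicle and 9.91, 8.16 and 7.14 in ginkgetin libraries in endothelial-like cells, where its own test missed the threshold (log2 fold change -2.71 ± 0.40 (SE), adjusted p = 0.057 by edgeR) and was past it with the block (-2.77 ± 0.35 (SE), adjusted p = 0.0048 by edgeR). In macrophage-like cells it had 28.4, 17.3 and 24.5 against 21.9, 37.9 and 57.5, and the difference of effects was 3.10 ± 0.42 (SE), adjusted p = 0.0005 by edgeR. Fosl2, a Fos family subunit, was lower in each ginkgetin library in endothelial-like cells (126, 95.8 and 259 against 73.0, 58.1 and 57.3) and higher in each in macrophage-like cells (23.1, 30.1 and 49.7 against 87.6, 59.2 and 77.3), with a difference of 2.05 ± 0.24 (SE), adjusted p = 0.00023 by edgeR. Klf6, with the values above, differed by 1.12 ± 0.25 (SE), adjusted p = 0.01 by edgeR. For Hspa1b the effect was less negative in macrophage-like than in endothelial-like cells, with a difference of 2.22 ± 0.57 (SE), adjusted p = 0.021 by edgeR. For Gadd45b the effect was more negative in macrophage-like cells, with a difference of -1.70 ± 0.35 (SE), adjusted p = 0.007 by edgeR, since in endothelial-like cells it overlapped at 10.0, 30.4 and 35.6 against 18.3, 20.8 and 11.5. Dusp5, a nuclear ERK phosphatase, had 9.32, 15.4 and 19.9 against 3.13, 10.6 and 3.86 in macrophage-like cells and 14.8, 29.6 and 71.9 against 34.4, 42.3 and 55.4 in endothelial-like cells, a difference of -2.34 ± 0.48 (SE), adjusted p = 0.0063 by edgeR. Fosb had 24.2, 76.4 and 177 against 119, 155 and 373 in the former and 5.34, 37.4 and 81.1 against 117, 146 and 182 in the latter, a difference of -1.29 ± 0.31 (SE), adjusted p = 0.016 by edgeR. Nr4a1, an orphan nuclear receptor, had 73.2, 90.3 and 144 against 131, 252 and 383 and 59.97, 54.5 and 97.6 against 55.8, 72.3 and 55.7, a difference of 1.12 ± 0.30 (SE), adjusted p = 0.028 by edgeR. The count was 4 without ginkgetin 3, against 4.43% of genes, and 4 over the cells of 250 to 5000 UMIs, against 3.29%. Both classes are held by different clusters in the 2 groups, as given above. On library totals the median of the differences rose by 0.42, the share of calls that were higher in macrophage-like cells rose from 60.5% to 90.7%, and 11 members were called, against 13.1% of genes.

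Replicate 3 of both groups was compared with replicates 1 and 2, with group as a term, since the labels name no batch. Egr3 was at 7 UMIs of 89,369,482 in replicates 1 and 2 and at 1497 of 67,856,372 in replicate 3 over all kept cells, and at 2 against 544 in B cell-like cells, and it did not pass the low-count filter in the group comparisons over all kept cells, macrophage-like and endothelial-like cells. Besides Egr3, Zfp36 (log2 fold change 1.08) was higher and Hspe1 (-1.09) lower in replicate 3, which makes 3 of 42 members called over all kept cells, against 10.3% of genes. In macrophage-like cells 8 were called, all higher in replicate 3, against 9.55% of genes. They were Egr3, Fosb (1.45), Junb (1.27), Jund (1.24), Nr4a3 (1.53), Dusp2 (1.49), Zfp36 (1.28) and Rhob (1.02), a small GTPase induced by stress. In endothelial-like cells 6 were called, against 14.5%. Egr3 and Zfp36 (1.32) were higher in replicate 3, and Hspa1a (-1.75), Hspa1b (-1.69), Hspb1 (-1.22) and Hspe1 (-1.65), which encodes the mitochondrial cochaperone HSP10, were lower. These shares include genes counted in 1 barcode set only. Among genes found in both sets, 7 members were called in macrophage-like cells (3.93% of genes), 5 in endothelial-like cells (9.39%) and 1 over all kept cells (3.55%). The macrophage-like count without vehicle 3 was 1, Hspe1 and lower, with 0 called higher (7.35% of genes called). It was 4 without ginkgetin 1 (8.4%) and 5 without vehicle 1 (9.38%), and the count over all kept cells was 1 without vehicle 1 (8.96%) or vehicle 2 (9.26%). In endothelial-like cells without ginkgetin 3 the balance turned to 7 higher and 1 lower (Hspe1), against 13.6% of genes. On library totals the share of calls that were higher rose from 53.9% to 69.2% over all kept cells, from 48.4% to 60.03% in macrophage-like cells and from 35.8% to 62.5% in endothelial-like cells, where 7 members were then called higher and 3 lower (Hspa1a, Hspa1b and Hspe1), against 16.3% of genes.

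Across 52 sums of a class in a library with at least 50 cells, which share 6 libraries and 10 classes, pairs of heat shock members had a median Pearson r of 0.39 between their CPM on a log scale, and 0.61 after centring on each class. In the centred values 75 of 78 pairs were positive. Pairs of immediate-early factors had a median r of 0.34 (0.32 centred), and pairs of a heat shock and an immediate-early member 0.06 (0.02 centred). Most like Hspa1a after centring were Hspa1b (0.87), Hsp90aa1 (0.87), Hspa8 (0.85) and Hsp90ab1 (0.85), and most like Fos were Egr1 (0.89), Jund (0.81) and Dusp1 (0.79). Jun had an r of 0.60 with Hspa1a and of 0.18 with Fos. These correlations describe sums that share cells' libraries and the vehicle and ginkgetin groups.

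Related genes outside the members were counted by list. Of 15 other heat shock factor targets and cochaperones, 15 were tested over all kept cells. Of these 0 were called (median log2 fold change -0.49), beside 12.8% of genes, and with the block 2 were lower (Hspb8 and Cacybp), beside 8.9%. In B cell-like cells 12 were tested and all 12 had negative fold changes, of which 0 were called without the block and 5 with it (Chordc1, Ahsa1, Stip1, Fkbp4 and Cacybp), beside 1.06% of genes called lower. In macrophage-like cells 1 of 13 was called, beside 10.6% of genes, the HSP90 cochaperone gene Ahsa1 (log2 fold change -1.41 ± 0.27 (SE), adjusted p = 0.021 by edgeR). Of 12 genes of the unfolded protein response of the endoplasmic reticulum, 0 were called over all kept cells (median -0.25), beside 12.8% of genes. In macrophage-like cells 1 of 11 was called, the cochaperone gene Sdf2l1 (-1.60), beside 10.6%. Of 25 other immediate-early genes tested over all kept cells, the kinase gene Sgk1 was higher (1.11), and Nfkbia, an NF-kappaB inhibitor (-1.07), Cebpb, a factor of acute inflammation (-2.07), and Maff (-1.66) were lower (median 0.01), so 4 of 25 were called, beside 12.8% of all genes. In macrophage-like cells the Kruppel-like factors Klf2 (1.62) and Klf4 (1.44) were higher and Maff (-1.33) was lower, 3 of 25, beside 10.6% of all genes. In endothelial-like cells edgeR called 0 genes of these 3 lists, and with the block Maff (-3.07), Per1 (-1.75) and Errfi1 (-1.12) were lower, beside 2.77% of genes. In macrophage-like cells the block added Cacybp (-1.08) and Manf (-1.07) as lower and Cyr61 (2.45) as higher, beside 16% of genes called in either direction. These genes were named because they were called. Hepatocyte RNA in the other cells and mitochondrial RNA moved beside the members. The 7 hepatocyte genes together took 176, 708 and 945 CPM in T cell-like cells of the vehicle libraries and 28.1, 495 and 66.3 in those of the ginkgetin libraries. Their sum was lower by mean in 10 of 10 classes, but the libraries overlapped in every class. The ratio of ginkgetin to vehicle means ran from 0.32 in T cell-like cells to 0.97 in macrophage-like cells. Ginkgetin 1 was the lowest library in 8 classes. Over all kept cells their sum was 2958 ± 1613 (SD, n = 3) against 935 ± 395 (SD, n = 3) CPM without overlap. This sum includes the hepatocyte-like cells, 46, 105 and 226 in the vehicle and 0, 12 and 174 in the ginkgetin libraries. Over all kept cells 7 were tested and 0 were called (median -2.45), while with the block 6 were called lower (median -2.97), beside 8.9% of genes. Also called lower with the block were 3 in endothelial-like cells, beside 2.77%, and 1 in macrophage-like cells, beside 8.48%. In B cell-like and cholangiocyte-like cells 2 of 7 each were called lower with the block, beside 1.06% and 0.982%. Mitochondrial UMIs were higher by mean in the ginkgetin libraries in 10 of 10 classes, with no overlap in 2, the endothelial-like and hepatocyte-like ones. In hepatocyte-like cells they took 4879 ± 3101 (SD, n = 3) CPM in vehicle against 21,797 ± 12,344 (SD, n = 2) in ginkgetin libraries. The part of either in the members' values was not tested.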

How the data were processed

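Droplet (10x Genomics Chromium) single-cell RNA libraries of LNPCs were analysed, 3 per group. The droplet platform follows the study's methods and the cell barcodes in the tables, whereas the extract protocol in the labels names kits for bulk RNA. The deposited tables hold raw UMI counts per gene and cell, made by the authors on GRCm38 (mm10) per the submitters' processing notes. The aligner is not given in the sources used here, and 0 columns of samples were left unused. The study kept cells of 250 to 5000 UMIs and under 5% mitochondrial UMIs with Seurat. Since that reading keeps 16,821 of 33,168 barcodes, 250 to 5000 was read as genes per cell here, and the stated reading is an alternative.

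Cells were clustered with scanpy 1.11.5 (2000 variable genes without the members, 30 components, 15 neighbours, Leiden resolution 1) into 38 clusters. Of these, 29 were named from fixed markers, which gave 10 classes, and 24,475 cells (88.9%) had the same class when members were kept in the clustering. Unnamed cells made up 20.8% ± 1.61 (SD, n = 3) of the vehicle and 18.7% ± 3.48 (SD, n = 3) of the ginkgetin libraries. The doublet caller marked 0.0286% to 0.192% of cells and was taken not to have worked, so doublets stayed in, and removing the highest 5% of scores is an alternative.

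Counts were summed per library and class (10 or more cells) and tested with edgeR 4.0.16 (quasi-likelihood, TMM, filterByExpr, R 4.3.3), with Benjamini-Hochberg adjustment over all genes tested. A gene was called at an adjusted p under 0.05 and a fold over 2. Scripts were tested on simulated data. Alternatives were DESeq2 1.42.0, other scalings and filters, blocks for replicate number or barcode set, and leaving out each library. Summed levels, shares of cells and correlations carry no test.

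Both groups share replicate numbers in the labels, which name no shared batch or animal. Same-numbered libraries deviated together, with correlations of 0.69, 0.69 and 0.91 for replicates 1, 2 and 3 over all kept cells. They were 0.39 or more in macrophage-like, endothelial-like, T cell-like and B cell-like cells, and the numbers were taken as pairs in the blocked fit. Between replicates 1 and 2 alone, the correlation of the 2 groups' differences was 0.25 over all kept cells and from -0.01 to 0.05 in those classes. The check thus could not tell pairs from the barcode set, and pairing of replicates 1 and 2 was not shown in those classes.

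The members and lists were chosen with earlier results of these data known. Values in every library are given for 13 members fixed by name, for up to 12 called members of lowest p and for the 3 members of largest change in macrophage-like and endothelial-like cells. Further members and classes with values, such as Egr2, Dusp2, Dusp6 and Nr4a1, and genes of the other lists were named after their values were seen. Promoters came from RefSeq (GRCm38.p6), and motifs were searched in the 250 bases before the start. Word sharing between Hspa1a and Hspa1b was counted in GENCODE transcripts.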

Additional observations from a re-analysis of the deposited data

Results flagged for a closer look

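For 8 members, the log2 fold change of ginkgetin against vehicle differed between macrophage-like and endothelial-like cells in a test of the difference itself (edgeR, library as a term, 3 libraries per group). It was more positive in macrophage-like cells for Myc (difference 3.10 ± 0.42 (SE), adjusted p = 0.0005), Hspa1b (2.22 ± 0.57, adjusted p = 0.021), Fosl2 (2.05 ± 0.24, adjusted p = 0.00023), Klf6 (1.12 ± 0.25, adjusted p = 0.01) and Nr4a1 (1.12 ± 0.30, adjusted p = 0.028). It was more negative there for Dusp5 (-2.34 ± 0.48, adjusted p = 0.0063), Gadd45b (-1.70 ± 0.35, adjusted p = 0.007) and Fosb (-1.29 ± 0.31, adjusted p = 0.016). Of the members tested these are 8 of 42, beside 8.78% of all genes tested. The count was 4 without ginkgetin 3 (4.43% of genes) and 4 over the cells of 250 to 5000 UMIs (3.29%). In both classes different clusters held most cells of the 2 groups, and the part of this in the differences was not tested.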

How the results depend on the processing

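The numbers of called members (with the percent of all genes called after each alternative's count) were 7 over all kept cells, 6 in macrophage-like cells, 0 in endothelial-like cells, 0 in the other classes, 8 for the difference between both cell types, and 3, 8 and 6 for the barcode sets over all kept, macrophage-like and endothelial-like cells. With the replicate number as a block they were 11 (17.3%), 15 (16%), 9 (3.96%) and 47 (1.83%) in the first 4 comparisons. The pairing check behind this block could not tell pairs from the barcode set. A block for barcode set gave 14 in macrophage-like cells (16.5%), 10 in endothelial-like cells (4.37%) and 32 in the other classes (1.63%). Within replicates 1 and 2 only they were 10 (12%), 9 (3.47%) and 7 (0.562%) in these 3, and by DESeq2 11 (13.8%), 7 (2.73%) and 31 (0.908%). The endothelial-like calls within replicates 1 and 2 were 5 higher and 4 lower, against 2 higher and 7 lower with the replicate block. With cells of 250 to 5000 UMIs they were 0 over all kept cells (0%), 2 in macrophage-like cells (1.27%) and 4 for the difference (3.29%). With no filter on cells there was 1 in endothelial-like cells (0.948%), 1 in the other classes (0.0533%) and 5 for the barcode sets in macrophage-like cells (9.46%). With no filter on low counts there were 5 in the other classes (0.217%), and with members kept in the clustering 1 in endothelial-like cells (0.746%). Added after seeing the data, genes found in both barcode sets only gave 1 in endothelial-like cells (0.968%), 7 in the other classes (0.184%) and 1 for the barcode sets over all kept cells (3.55%), and library totals gave 4 over all kept cells (11.2%) and 10 for the barcode sets in endothelial-like cells (16.3%). Leaving out 1 library in turn gave ranges of counts, with the range of the percent of genes called in brackets. They were 1 to 8 over all kept cells (4.14% to 10.8%) and 0 to 8 in macrophage-like cells (0% to 12.5%). Endothelial-like cells had 0 (0% to 0.135%) and the other classes 0 to 1 (0% to 0.0246%). The difference had 4 to 10 (4.43% to 8.92%). The barcode sets had 1 to 4 (6.03% to 9.64%), 1 to 12 (7.35% to 9.67%) and 5 to 8 (12.1% to 14.7%). The cause was not tested. For single named genes, 602 of 690 values under other settings kept direction and side of the threshold, 42 lost the call, 38 gained it and 8 changed sign, and of 369 values without 1 library 261 kept both, 96 lost the call, 2 gained it and 10 changed sign. None of these 18 was called under either setting. Jun in macrophage-like cells (-0.06) was 0.024 with the replicate block, 0.022 with a block for barcode set, 0.34 in replicates 1 and 2, 0.39 on library totals and, without 1 library, -0.30 to 0.40 (positive without vehicle 3). In endothelial-like cells Jun (-0.14) was 0.33 in replicates 1 and 2 and -0.38 to 0.26 without 1 library (positive without vehicle 3). Dnajb1 in endothelial-like cells (-0.06) was 0.14 in replicates 1 and 2, 0.053 on library totals and -0.44 to 0.30 without 1 library (positive without vehicle 1, vehicle 2 or ginkgetin 3), and in macrophage-like cells (-0.37) 0.063 on library totals. Without 1 library, Junb in macrophage-like cells (0.14) lay between -0.28 and 0.86 (negative without vehicle 1, vehicle 2 or ginkgetin 3) and Zfp36 (0.23) between -0.10 and 1.05 (negative without vehicle 1 or ginkgetin 3). Over all kept cells, the log2 ratio of summed heat shock levels lay between -1.23 and -0.76 in all settings run, and that of summed immediate-early levels between -0.07 and 0.48. Ginkgetin 1, with 101 macrophage-like cells, and classes of few cells limit the depth behind the scarcer members.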
